A study of Rattus norvegicus with 6 samples.

Results

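The genes described here encode the Wnt ligands, their Frizzled and Lrp receptors, the R-spondin branch, the secreted antagonists and the main intracellular and nuclear parts of the pathway, measured in cultured rat ovaries with and without NT3. They were chosen by name: every gene whose single symbol in the array annotation begins with Wnt, Fzd, Sfrp or Dkk followed by a number, and 19 further named genes. Of the 14217 genes with a single symbol, 43 met this rule, on 68 probe sets. A probe set is the group of short probes that reports 1 transcript, and where a gene had several, the one with the largest mean log2 signal stood for it. Of the 19 named genes, Rspo2 and Rnf43 had no probe set under their symbol in the annotation used and were not analysed here.

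Ovaries of 4-day-old female Sprague-Dawley rats were cultured whole for 48 h, either with 50 ng/ml of recombinant human NT3 (3 arrays) or with no added factor (3 arrays). NT3, a neurotrophin, was tested here because the series concerns the passage of primordial to primary follicles. Both groups were kept on floating filters in the same medium with albumin, ascorbic acid and transferrin, and each array held RNA of 2 to 3 ovaries homogenised together. The titles name the replicates as biological without saying which animals or litters they came from, so the p-values reflect the spread between these 6 samples and nothing beyond it. Because the tissue was whole ovary, fewer cells of a type and less RNA per cell cannot be told apart in any value below.

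Wnt proteins are secreted, lipid-modified signals. Porcupine, the product of Porcn, attaches the lipid, and the ligand then binds a Frizzled receptor together with Lrp5 or Lrp6. In the canonical branch this stops the complex of Axin, Apc and Gsk3b from marking β-catenin for destruction, so that β-catenin enters the nucleus and acts with Tcf7l2, Lef1 and their relatives. R-spondins, bound by Lgr4 and Lgr5, strengthen the signal by taking the ubiquitin ligases Znrf3 and Rnf43 off the surface, while Sfrp, Dkk and Wif1 proteins work in the extracellular space, most of them as antagonists. In the mouse, Wnt4 and Rspo1 are needed for the ovarian fate of the fetal gonad, and Lgr5 marks cells of the ovarian surface.

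No gene of this pathway passed the test between NT3-treated and control ovaries, and the differences were small and mixed in direction. Of the 43 genes, 29 had a mean log2 signal at or above the 40th percentile of all probe sets, a signal of 41.3, and were tested, and 14 lay below it. By limma with Benjamini-Hochberg adjustment over 18625 probe sets, 0 of the 29 had an adjusted p under 0.05 and each adjusted p was 1.00, where the calls over all probe sets were 0%. At an unadjusted p under 0.05 the count was also 0 of 29, against 1.29% of all tested probe sets, and the smallest unadjusted p of the 29 was 0.105, for Wnt1. The median log2 difference, NT3 minus control, was 0.020 over the 29 genes and -0.001 over all tested probe sets. It was higher than 0 in 17 genes and lower in 12, or 58.6% higher, beside 49.8% over all tested probe sets.

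A p that misses the threshold does not show equal levels, so the intervals are given as bounds on the size of a change. The 95% interval of the log2 difference stayed within 2-fold in either direction for 27 of the 29 genes, the exceptions being Wnt1 and Lgr4, and within 1.5-fold for 18. Over all tested probe sets the same shares were 93.3% and 61.9%. The median standard error was 0.18 for these genes and 0.18 for all tested probe sets, and it ran from 0.10 for Apc to 0.35 for Wnt1. The intervals rest on 3 arrays a group and take the arrays as independent.

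The arrays shared 1 scale, with median signals from 69.0 to 74.4 in NT3 and 71.1 to 75.0 in control. The defining transcripts of the ovary were present: all 5 annotated oocyte markers, Gdf9, Bmp15, Zp1, Zp2 and Zp3, and all 5 annotated granulosa markers, among them Foxl2 and Amh, passed the signal filter. Control replicate 2 stood apart, with beta-actin probes near the 3′ end 6.83 times as bright as those near the 5′ end, a measure of RNA integrity, against 2.78 to 2.91 in NT3 and 2.42 and 2.60 in the other controls. It was the highest or lowest of the 6 arrays in 62.1% of the 29 genes, and in 58.9% of all tested probe sets. Differences without it are given beside those that turned direction or moved by over 1.5 times.

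**Figure D1:**
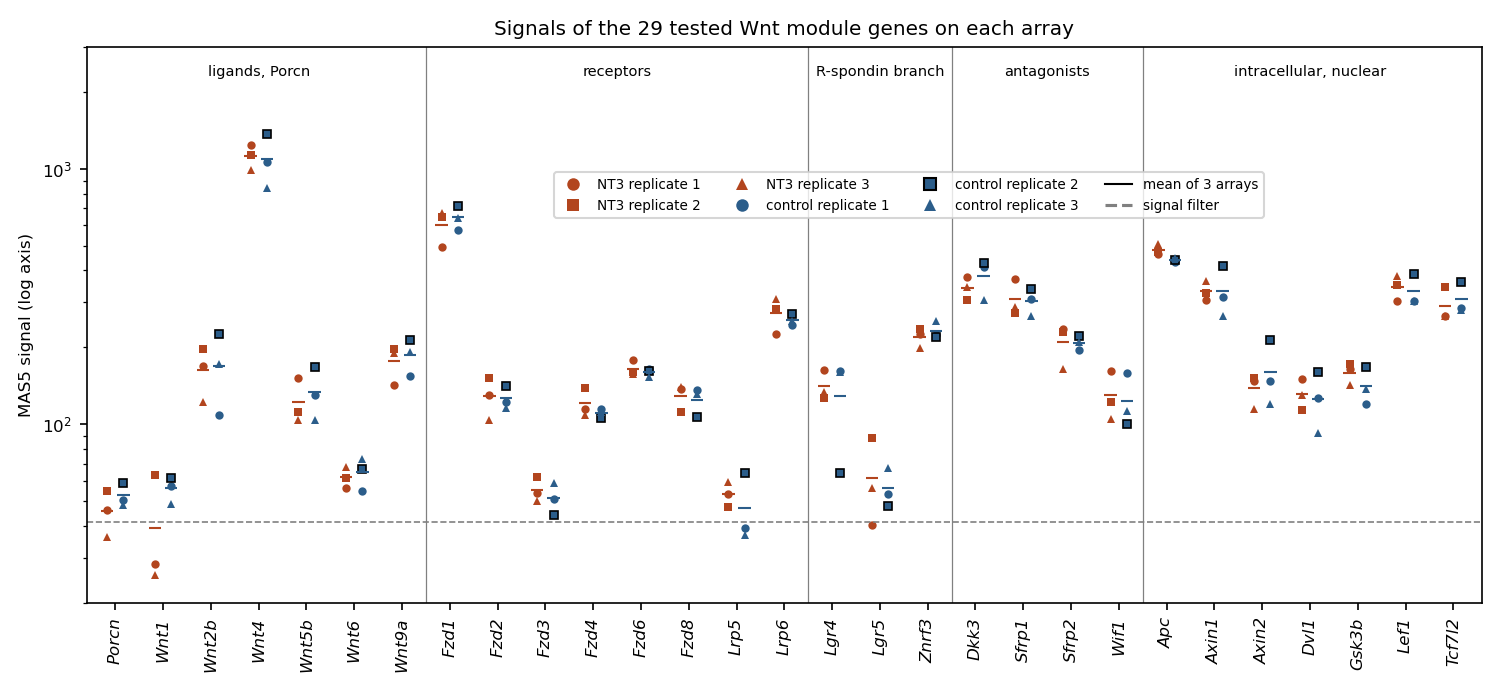
MAS5 signal (log axis) of the 29 tested genes on each array, NT3 arrays left of control arrays in each column, with replicate numbers as symbols, short lines at the means and a dashed line at the filter of 41.3. The groups overlap in 28 genes. Control replicate 2, outlined in black, was lowest for Lgr4 and highest for Axin2 and Wnt4.

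Among the ligands, 6 of 13 Wnt genes were tested, with 1 higher and 5 lower in NT3. Wnt4, the ligand of early ovarian development, had signals of 1244, 1131 and 988 in NT3 replicates 1 to 3, against 1059.8, 1375 and 838 in control replicates 1 to 3. The lowest array in both groups was replicate 3, and all 3 NT3 values lay within the range of the controls. Wnt4 averaged 1121 ± 128 in NT3 and 1091 ± 269.6 in control (SD, n = 3 each), with a log2 difference of 0.062 ± 0.18 (SE), a 95% interval of -0.34 to 0.46 and an unadjusted limma p of 0.73. Without control replicate 2, the array with the highest Wnt4 signal, the difference was 0.24 with an unadjusted limma p of 0.0967.

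Wnt2b, another ligand of the canonical branch, had signals of 168, 197 and 122 in NT3, against 108, 225 and 172 in control. Its control arrays spread more than its NT3 arrays, and the log2 difference of -0.016 ± 0.28 (SE) became 0.22 without control replicate 2. Wnt6 had 56.3, 61.7 and 68.2 in NT3, against 54.8, 66.8 and 72.8 in control, with all 6 values close together and a log2 difference of -0.057 ± 0.21 (SE), or -0.03 without control replicate 2. Wnt6 and Wnt10a lie next to each other on chromosome 9 in the RefSeq gene order of GRCr8, as do Wnt1 with Wnt10b and Wnt9a with Wnt3a on chromosomes 7 and 10.

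Wnt1, best known from the developing midbrain, had the largest difference of the tested genes. Its signals were 28.4, 63.3 and 25.7 in NT3 replicates 1 to 3, against 57.4, 61.7 and 48.9 in control replicates 1 to 3. NT3 replicates 1 and 3 lay below every control array and below the filter, while NT3 replicate 2 lay above all the controls. The mean log2 signal of the NT3 arrays was under the filter, so Wnt1 was tested only through its control arrays. The log2 difference was -0.64 ± 0.35 (SE), the 95% interval -1.43 to 0.16 and the unadjusted limma p 0.105. Leaving out NT3 replicate 2 gave -1.04 with an unadjusted limma p of 0.00513 and an adjusted p of 1.00, so 1 array decided this value.

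Wnt5b, a ligand of the non-canonical branch, and Wnt9a had log2 differences of -0.12 ± 0.23 (SE) and -0.08 ± 0.19 (SE), and 0.054 and 0.024 without control replicate 2. Porcn had 46.3, 54.6 and 36.2 in NT3, against 50.6, 59.1 and 48.3 in control, a log2 difference of -0.22 ± 0.24 (SE), or -0.13 without control replicate 2. It was lower in NT3 in all 3 pairs of equal replicate number, though the groups overlapped. The other Porcn probe set, below the filter, went the opposite way without overlap, at 32.8, 33.4 and 38.3 in NT3 replicates 1 to 3, against 26.9, 13.1 and 23.7 in control replicates 1 to 3, a log2 difference of 0.78. Groups did not overlap in 7.16% of all probe sets with no filter.

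The other 7 Wnt genes, Wnt2, Wnt5a, Wnt7a, Wnt8b, Wnt10a, Wnt11 and Wnt16, lay below the filter. Wnt5a, a ligand that signals largely outside the β-catenin branch, had signals of 38.1, 25.7 and 32.4 in NT3 replicates 1 to 3, against 31.5, 3.8 and 22.7 in control replicates 1 to 3. Wnt11 had 29.0, 15.5 and 33.5 in NT3, against 29.0, 5.3 and 16.8 in control. In both genes control replicate 2 was the lowest array and the other arrays overlapped. Wnt10a was the 1 gene below the filter whose groups did not overlap, at 1.9, 0.9 and 1.7 in NT3, against 15.3, 5.0 and 2.4 in control, signals far under the filter. With no filter, the groups did not overlap in 2 of all 43 genes, against 7.16% of all 31042 probe sets.

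A larger share of the annotated receptors than of the annotated ligands passed the filter. The 6 of 7 Fzd genes that did and both Lrp genes were tested, and 7 of these 8 had a difference above 0. None of the 8 passed the test, each interval held 0, and the largest difference was that of Lrp5. Fzd1 had signals of 496, 646 and 674 in NT3 replicates 1 to 3, against 578, 717 and 644 in control replicates 1 to 3. The 2 groups covered much the same range, and the log2 difference was -0.10 ± 0.14 (SE) with an interval of -0.43 to 0.23, and -0.025 without control replicate 2. Fzd4, which also serves as the receptor of norrin in blood vessels, had 115, 138 and 109 in NT3, against 114, 106 and 112 in control. NT3 replicate 2 was the highest array and the others lay together, with a log2 difference of 0.12 ± 0.17 (SE).

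Fzd6, Fzd8 and Fzd2 had log2 differences of 0.045, 0.052 and 0.011, and Fzd3 had 0.12. Without control replicate 2 that of Fzd8 turned to -0.055, and those of Fzd2 and Fzd3 were 0.10 and 0.012. Fzd5 lay below the filter, with 6.7 to 9.4 in NT3 and 3.0 to 8.3 in control. The co-receptor gene Lrp6 had 226, 284 and 309 in NT3, against 244, 269.8 and 254 in control, a log2 difference of 0.082 ± 0.15 (SE) with an interval of -0.25 to 0.42. For Lrp5 the signals were 53.5, 47.6 and 59.4 in NT3 replicates 1 to 3, against 39.1, 64.5 and 36.7 in control replicates 1 to 3. All 3 NT3 arrays lay above control replicates 1 and 3 and below control replicate 2. Its log2 difference was 0.24 ± 0.27 (SE) with all arrays and 0.49 without control replicate 2, at an unadjusted limma p of 0.0718, and the second Lrp5 probe set had 0.34, or 0.53 without that array.

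In the R-spondin branch the ligands Rspo1 and Rspo3 lay below the filter and Lgr4, Lgr5 and Znrf3 above it. Rspo1, which acts with Wnt4 in the mouse fetal ovary, had signals of 36.1, 39.4 and 16.1 in NT3 replicates 1 to 3, against 26.5, 34.5 and 24.9 in control replicates 1 to 3. Rspo3 had 28.4, 34.9 and 32.3 in NT3, against 36.8, 46.8 and 27.1 in control. The arrays of both genes overlapped between the groups. Lgr4 had 164, 126 and 134 in NT3, against 162, 64.5 and 160.5 in control. Control replicate 2 was far below the other 5 arrays, which lay between 126 and 164. The log2 difference of Lgr4 was 0.24 ± 0.34 (SE) with an interval of -0.52 to 1.00, and it became -0.20 without control replicate 2, so that 1 array set its direction.

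Lgr5 had signals of 40.3, 88.0 and 56.0 in NT3, against 53.4, 47.8 and 67.2 in control. NT3 replicates 2 and 1 were the highest and the lowest of the 6 arrays, and the log2 difference was 0.07 ± 0.31 (SE), turning to -0.038 without control replicate 2. The summed signal of the 6 tested surface epithelium markers of 8 listed was 8002, 11730.0 and 8040.0 in NT3 replicates 1 to 3, against 7343, 11926 and 8864 in control replicates 1 to 3. It was highest in replicate 2 of both groups, whereas Lgr5 was high in NT3 replicate 2 and lowest of the controls in control replicate 2, and the part of these markers in the Lgr5 values was not tested. Znrf3, the ligase that removes Frizzled receptors, had 226, 236 and 198 in NT3, against 223, 219 and 254 in control. The spread was small in both groups, with a log2 difference of -0.078 ± 0.14 (SE) and an interval of -0.39 to 0.23, or -0.12 without control replicate 2.

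**Figure D2:**
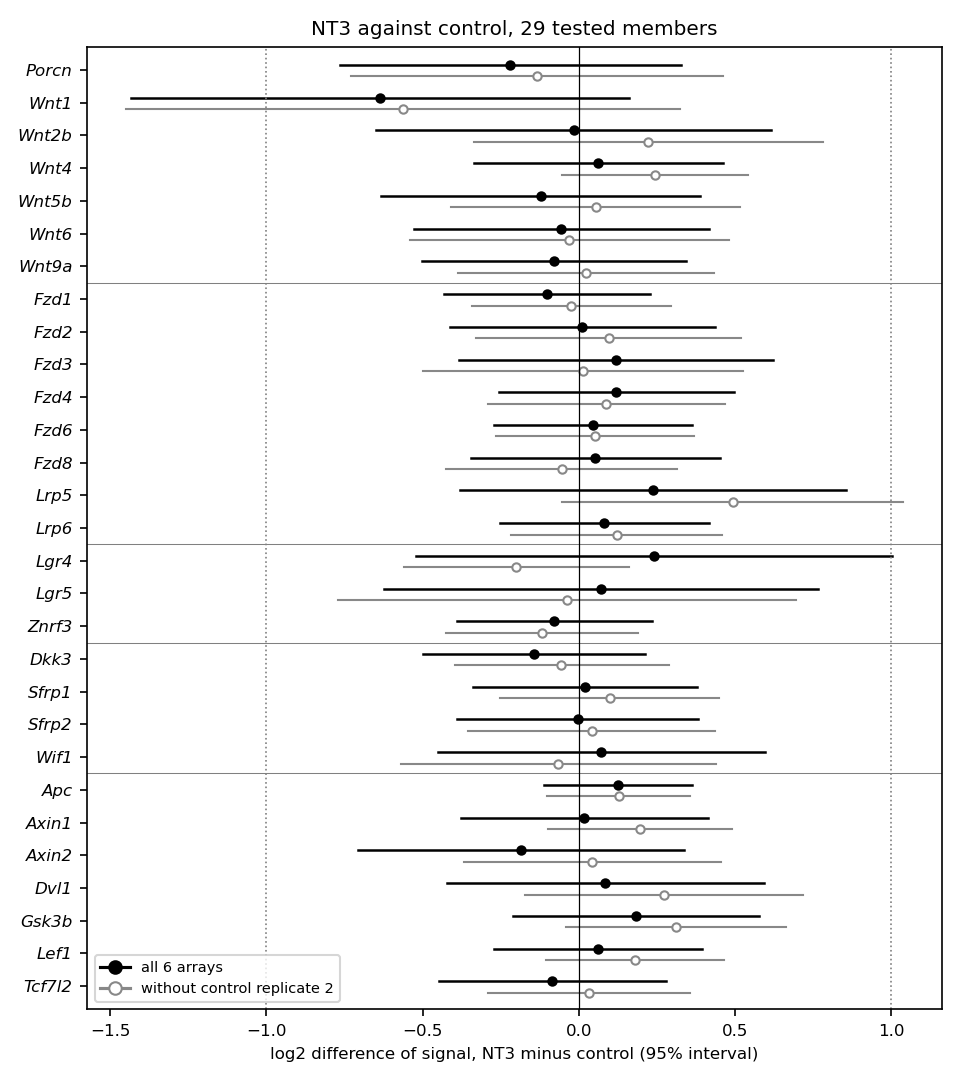
Log2 difference of signal, NT3 minus control, of the 29 tested genes with 95% limma intervals, from all 6 arrays (filled) and without control replicate 2 (open), with dotted lines at 2-fold. Each interval from all 6 arrays holds 0, and 10 of the 29 points change sign without that array.

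Of the secreted antagonists, Sfrp1, Sfrp2, Dkk3 and Wif1 were tested, and Sfrp4, Sfrp5 and Dkk2 lay below the filter. Sfrp1, a Frizzled-like protein that binds Wnts, had signals of 371, 273 and 286 in NT3 replicates 1 to 3, against 310.0, 338 and 266 in control replicates 1 to 3. NT3 replicate 1 was the highest and control replicate 3 the lowest array, with a log2 difference of 0.02 ± 0.16 (SE), or 0.10 without control replicate 2. Sfrp2 had 236, 230.5 and 164 in NT3, against 195, 221 and 209 in control, a log2 difference of -0.003 ± 0.17 (SE) with an interval of -0.39 to 0.38. The lowest of its 6 arrays was NT3 replicate 3, and the difference turned to 0.041 without control replicate 2. The second Sfrp2 probe set, also above the filter, had a log2 difference of 0.32, or 0.0 without that array.

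Dkk3, a divergent member of the Dickkopf family, had 378, 307 and 344 in NT3, against 411, 426 and 306 in control. Control replicates 1 and 2 were above all the NT3 arrays and control replicate 3 was below them. The log2 difference was -0.14 ± 0.16 (SE), or -0.056 without control replicate 2. The 3 other Dkk3 probe sets lay below the filter and went the same way. In 1 of these the groups did not overlap, as in 7.16% of all probe sets with no filter. It had 27.7, 8.0 and 18.3 in NT3, against 38.5, 31.3 and 49.1 in control, a log2 difference of -1.29. Wif1, which binds Wnt proteins directly, had 162, 122 and 105 in NT3, against 158, 100.2 and 112 in control. Replicate 1 was the highest array in both groups, and the log2 difference of Wif1 was 0.072 ± 0.23 (SE), turning to -0.066 without control replicate 2. Sfrp4 had 17.7, 12.1 and 31.7 in NT3, against 12.5, 47.8 and 32.4 in control, Sfrp5 14.3 to 49.5 in NT3 and 24.5 to 39.9 in control, and Dkk2 5.4 to 8.4 in NT3 and 3.3 to 7.3 in control.

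Apc, a part of the β-catenin destruction complex, was the 1 tested gene whose groups did not overlap. Its signals were 462, 471 and 508 in NT3 replicates 1 to 3, against 430.5, 441 and 449 in control replicates 1 to 3. All 3 NT3 values exceeded the highest control value, and the difference was small: 480.5 ± 24.6 in NT3 and 440.0 ± 9.13 in control (SD, n = 3 each). The log2 difference was 0.13 ± 0.10 (SE), the 95% interval -0.11 to 0.36 and the unadjusted limma p 0.259. Such separation occurred in 1 of the 29 genes, or 3.45%, against 5.83% of all tested probe sets, of which 2.62% had NT3 above control and 3.21% below. A second Apc probe set above the filter had 110.1, 120.0 and 95.3 in NT3 replicates 1 to 3, against 98.6, 25.6 and 86.7 in control replicates 1 to 3. There the groups overlapped and control replicate 2 was far below the other arrays, with a log2 difference of 0.84, and 0.22 without that array.

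Axin2, a direct β-catenin target used as a readout of canonical signalling, had signals of 148, 152 and 115 in NT3 replicates 1 to 3, against 148, 214 and 119.5 in control replicates 1 to 3. Control replicate 2 was the highest array, and the other 5 lay between 115 and 152 in both groups. The log2 difference was -0.18 ± 0.23 (SE) with an interval of -0.71 to 0.34, and 0.043 without control replicate 2. Axin1, its relative in the destruction complex, had a difference of 0.018 ± 0.17 (SE), and 0.20 without that array.

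The promoter of Axin2 is shown because it holds the letters that Tcf and Lef proteins are known to prefer. The search was for CTTTG followed by a pair of letters that are each A or T, on both strands, in 300 bases, 250 before and 50 after each gene's start, in RefSeq sequences of GRCr8. Of the 43 genes, 30 had a promoter in that table, and 2 of these, Axin2 and Sfrp5, held a match, or 6.67%, against 12.4% of 13242 promoters of genes on the array and 17.1% of all 33469. Axin2 held matches starting at bases -232 and -132 from its start, and Sfrp5 held 1 on the other strand at base -112. A match describes the letters only. Capitals mark the matches in the Axin2 sequence, chr10:94398535-94398834 on the plus strand, and the CG pairs in the Wnt4 sequence, chr5:154797200-154797499 on the plus strand, which is shown for contrast in base composition.
Axin2: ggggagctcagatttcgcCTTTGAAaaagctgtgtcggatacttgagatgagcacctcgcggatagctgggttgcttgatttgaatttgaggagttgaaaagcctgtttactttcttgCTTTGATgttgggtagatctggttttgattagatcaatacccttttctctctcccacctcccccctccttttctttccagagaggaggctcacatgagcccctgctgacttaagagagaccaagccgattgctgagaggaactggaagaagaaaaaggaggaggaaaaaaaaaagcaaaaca
Wnt4: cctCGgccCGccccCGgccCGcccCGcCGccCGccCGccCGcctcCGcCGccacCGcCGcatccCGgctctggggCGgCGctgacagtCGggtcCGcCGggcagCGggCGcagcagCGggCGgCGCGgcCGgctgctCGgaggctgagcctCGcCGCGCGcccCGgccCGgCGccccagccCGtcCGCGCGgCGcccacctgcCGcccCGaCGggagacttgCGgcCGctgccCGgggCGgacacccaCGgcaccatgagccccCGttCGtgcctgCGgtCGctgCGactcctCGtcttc
The Wnt4 window held 53 CG pairs and was 83.3% G and C, the highest values of the 30, and the Axin2 window held 5 at 45.7%. The median over the 30 was 25.5 CG pairs and 65.3% G and C, beside 18 and 59.7% for the promoters of genes on the array. The median number of CG pairs was 25.5 both in the 18 tested genes and in the 12 below the filter.

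Lef1, a nuclear partner of β-catenin, had signals of 305, 349.7 and 381 in NT3 replicates 1 to 3, against 304, 388 and 303 in control replicates 1 to 3. Control replicate 2 was the highest array here as well, and the log2 difference was 0.062 ± 0.15 (SE), and 0.18 without it. The second Lef1 probe set had 192, 249.6 and 244 in NT3 replicates 1 to 3, against 139, 459.7 and 161 in control replicates 1 to 3, so that control replicate 2 was far above the others on it. Over the 6 arrays its log2 difference was 0.06. Leaving out control replicate 2 gave 0.60, with an interval of 0.24 to 0.96, an unadjusted limma p of 0.00435 and an adjusted p of 0.999. Tcf7l2, another such partner, had 264, 345 and 266 in NT3, against 285, 361 and 281 in control. Its log2 difference was -0.085 ± 0.16 (SE), turning to 0.033 without control replicate 2. Of its 4 other probe sets, the 2 above the filter went the other way, at 0.29 and 0.074, and the 2 below it went the same way.

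Gsk3b, the kinase of the destruction complex, had 164, 171 and 142 in NT3, against 119.6, 167 and 137 in control. All 3 pairs of equal replicate number were higher in NT3 but the groups overlapped, with a log2 difference of 0.18 ± 0.17 (SE) and an unadjusted limma p of 0.32, and 0.31 at 0.0759 without control replicate 2. Dvl1, which carries the signal from Frizzled into the cell, had a difference of 0.085 ± 0.22 (SE), and 0.27 without control replicate 2, with both other probe sets going the other way. Dvl2 lay below the filter at 33.9, 30.8 and 47.9 in NT3, against 48.1, 5.9 and 52.8 in control, with control replicate 2 again the lowest.

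**Figure D3:**
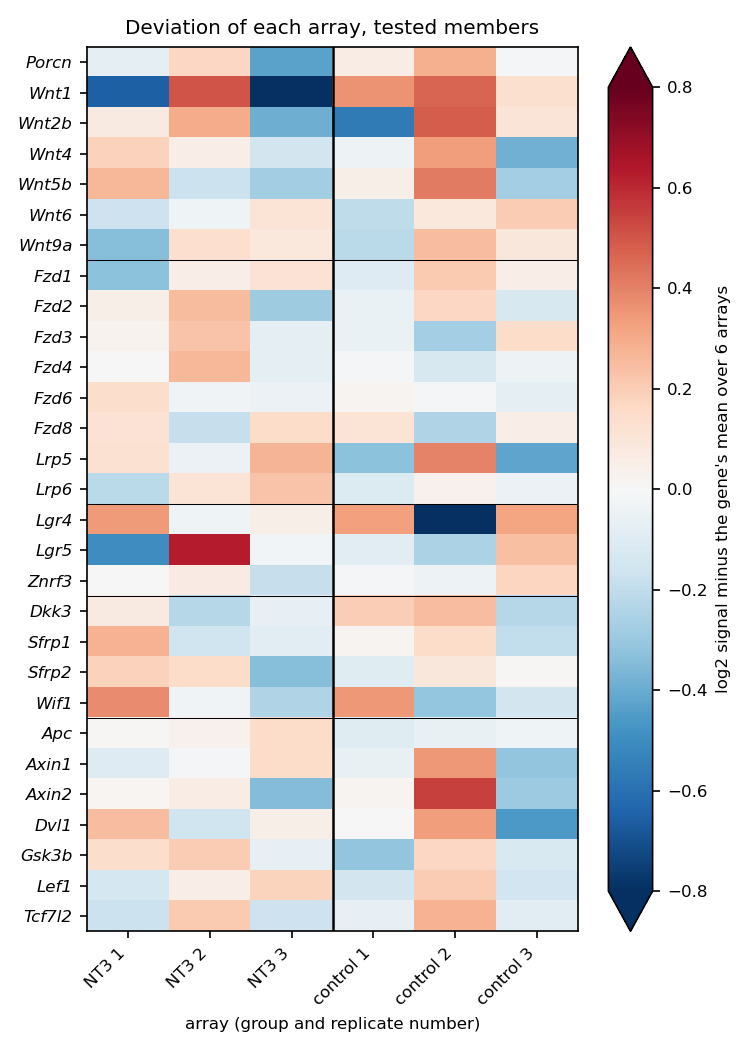
Log2 signal of each array minus the gene's mean over the 6 arrays, for the 29 tested genes (rows, ordered by role) with NT3 arrays left of control arrays. The column of control replicate 2 holds the highest value in 13 genes and the lowest in 5, and Apc is the 1 row in which all NT3 arrays lie above all control arrays.

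The 29 genes varied between arrays without a shared difference between the groups. The median over the 29 genes of the log2 deviation from each gene's mean was 0.028, 0.056 and -0.069 in NT3 replicates 1 to 3, against -0.052, 0.16 and -0.049 in control replicates 1 to 3. Control replicate 2 was thus the highest, where the same median over all tested probe sets was 0.031. NT3 minus control within pairs of equal replicate number had 1 direction in all 3 pairs for 7 of the 29 genes, or 24.1%, against 21.1% of all tested probe sets. Those above 0 were Apc, Gsk3b and Fzd8, and those below 0 were Porcn, Wnt9a, Axin2 and Tcf7l2. Without control replicate 2 the median difference was 0.043 with 19 genes higher, 0 of 29 had an unadjusted p under 0.05, against 3.52% of all tested probe sets, and the groups did not overlap in 4, against 18.5%.

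By role, the ligands with Porcn had a median log2 difference of -0.080 and 1 of 7 higher, but 0.024 and 4 of 7 without control replicate 2. The receptors had 0.067 with 7 of 8 higher, and 0.070 with 6 of 8 without that array. The 3 tested R-spondin branch genes had 0.070 with 2 higher, and -0.12 with 0 higher without it. The antagonists had 0.0080 with 2 of 4 higher, and -0.0070 with 2 of 4. The intracellular and nuclear genes had 0.062 with 5 of 7 higher, and 0.18 with 7 of 7. The direction of the ligand, R-spondin and antagonist medians therefore turned with 1 array.

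For 17 of the 43 genes several probe sets were present. Of their 25 other probe sets, 10 went the opposite way from the one used, and of the 9 that passed the filter 4 did. Sfrp1 had 3 probe sets above the filter, all with differences above 0, of which 1 turned to -0.06 without control replicate 2. The widest gaps lay on probe sets below the filter, such as that of Wnt6 at 2.05 with signals of 20.4, 17.1 and 7.4 in NT3 replicates 1 to 3, against 4.7, 7.7 and 1.0 in control replicates 1 to 3. With all arrays 0 of the 9 had an unadjusted limma p under 0.05. Without control replicate 2 there was 1, the second Lef1 probe set, while 0 had an adjusted p under 0.05. Calls at the unadjusted threshold were also more common in general once control replicate 2 was dropped. They made up 3.52% of all tested probe sets in that fit and 1.29% in the fit with every array.

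**Figure D4:**
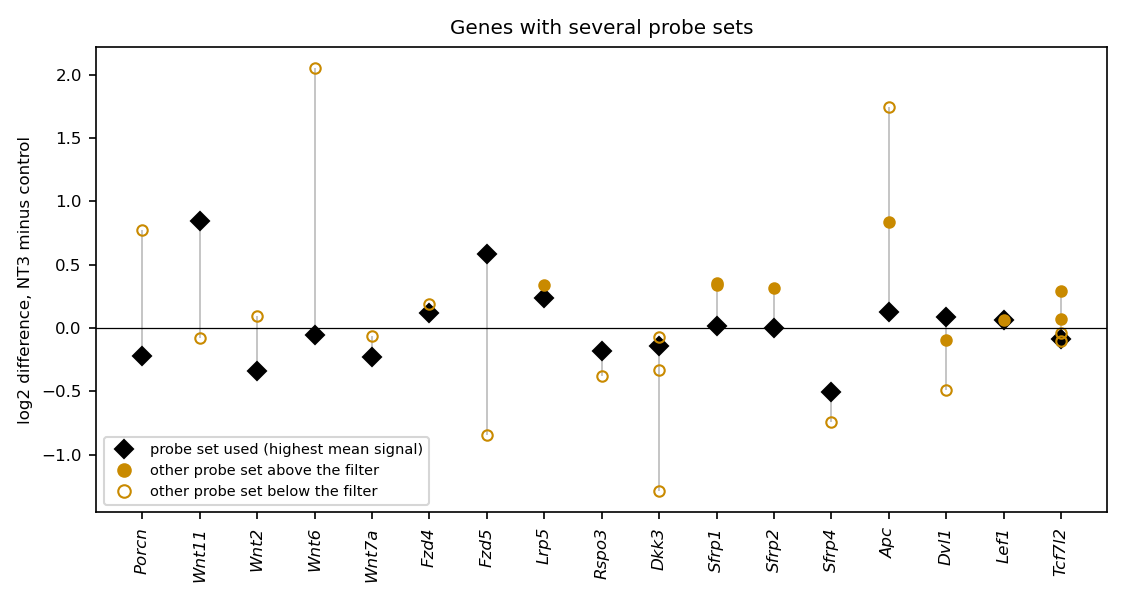
Log2 difference, NT3 minus control, of every probe set of the 17 genes with more than 1, with the probe set used as a diamond, other probe sets above the filter as filled circles and those below it as open circles. In 8 of the 17 genes at least 1 other probe set lies on the opposite side of 0.

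Other genes of the pathway were taken from lists of 94 genes, of which 83 were annotated and 72 tested. None had an adjusted p under 0.05, 35 were higher and 37 lower, and the median log2 difference was -0.0090. At an unadjusted p under 0.05 there were 5, of which 1 was higher and 4 lower, against 0.548% and 0.741% of all tested probe sets. The groups did not overlap in 6, or 8.33%, beside the 5.83% given above. Cdx2 and Plaur, which count among both, were tested only because 1 group lifted the mean over the filter, and among the 70 genes whose mean reached the filter in both groups the counts were 3 and 4. The shares given for all tested probe sets were not restricted in this way. Ctnnb1, the gene of β-catenin, had signals of 9683, 9648 and 9887 in NT3 replicates 1 to 3, against 8455, 9740.0 and 8571 in control replicates 1 to 3. Control replicate 2 lay among the NT3 arrays and the other controls below them, with a log2 difference of 0.13 ± 0.094 (SE), and 0.19 without control replicate 2 at an unadjusted limma p of 0.0367.

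With all arrays, the 4 with lower signals at an unadjusted limma p under 0.05 were Cdx2, Ppard, Nfatc4 and Bcl9l. Cdx2, an intestinal homeobox gene and reported Wnt target, had 32.0, 39.3 and 30.9 in NT3, against 54.5, 58.0 and 53.5 in control, a log2 difference of -0.71 ± 0.23 (SE). Its NT3 signals all lay under the filter of 41.3, so it was tested only through its control arrays, and the size of its difference is uncertain. Ppard, the gene of a fatty acid-activated nuclear receptor, had 119.6, 109.7 and 108 in NT3, against 154, 181 and 135 in control, a log2 difference of -0.47 ± 0.17 (SE). In both genes all 3 NT3 values were under the lowest control value. Nfatc4, of the calcium branch, had 104, 112 and 157 in NT3, against 165, 229.9 and 155 in control with overlapping groups, and Bcl9l, a β-catenin co-activator, had 58.4, 95.1 and 86.1 in NT3, against 110.1, 121 and 102 in control without overlap. Their differences were -0.56 and -0.50, and -0.39 and -0.44 without control replicate 2, with unadjusted limma p of 0.0792 and 0.0924.

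Plaur, the urokinase receptor gene and another reported target, was the 1 with a higher signal at that threshold with all arrays. It had 88.2, 55.2 and 54.2 in NT3 replicates 1 to 3, against 24.3, 26.4 and 50.8 in control replicates 1 to 3. All 3 NT3 values exceeded the highest control value, with a log2 difference of 1.01 ± 0.34 (SE). The mean log2 signal of its control arrays lay under the filter, so it was tested only through its NT3 arrays, and the size of its difference is uncertain. Cdx2 and Plaur were known from earlier results to be among the lowest p-values of these arrays when the lists were drawn up, so their place in the target list is not independent evidence. By list, the reported targets had 12 of 18 higher with a median of 0.095. The β-catenin branch had 11 of 26 higher with -0.037, the planar polarity and calcium branches 8 of 21 with -0.065, and the processing and co-receptor genes 4 of 8 with 0.024.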

How the data were processed

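The authors deposited linear intensity values, 1 for each probe set on each array, made with MAS5 per the submitters' processing notes (version not given in the sources). The 2% trimmed mean was 210.1 on every array, so no further scaling was applied. After removing 57 control probe sets from 31099, signals were taken to log2 after 0 values, found in 5 probe sets, were set to 0.1. The filter at the 40th percentile kept 18625 probe sets. NT3 was compared with control by limma 3.58.1 in R 4.3.3 (lmFit, eBayes with an intensity trend, 2-sided), with Benjamini-Hochberg adjustment over all kept probe sets at 0.05. The fit was tested on simulated data. Array number limits the precision.

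The genes, lists and named genes were chosen with earlier results of these data known. Genes were named from the array annotation, in which 20832 probe sets had 1 symbol, 436 several and 9780 none. All 43 matched the RefSeq gene table and 0 symbols changed. Among the 43, values on every array are given for tested genes with an unadjusted p under 0.05 or with groups that do not overlap. They are also given for a fixed set of pathway genes. Of that set, Wnt9b and Dkk1 had no probe set under their symbols in the annotation used. Values on every array of Wnt1, Wnt10a, Porcn, Gsk3b and Dvl2 are given outside these rules, with the results known. Other pathway genes were named up to 4 per direction by lowest p under 0.05, and Ctnnb1.

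Group and replicate number were read from each title, and no per-sample column was left out. Deviations from the group means correlated at 0.230, 0.247 and 0.222 for NT3 and control arrays of equal number. The highest value for unequal numbers was 0.029. Deviations within a group cancel out, so low values for unequal numbers follow in part from the others and are not separate support. Equal numbers were taken as pairs only in the pair counts and the blocked fits, and the labels do not state such a pairing. The main fit had no block. Alternatives were the block, quantile normalization, median centring, no filter, the 60th percentile as filter, array weights, eBayes with no trend, 16 added before log2, a gene's probe sets averaged, and each array left out. The block without control replicate 2 was added after the data were seen.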

Additional observations from a re-analysis of the deposited data

How the results depend on the processing

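None of the tested genes had an adjusted limma p under 0.05 under any of the 16 alternatives, the 43 tested with no filter included. The lowest was 0.668, for Wnt1 with the replicate block and without control replicate 2. Over all probe sets the share with an adjusted p under 0.05 was 0.0215% in that fit and 0% under the other alternatives. In the fit that took equal replicate numbers as a block, 0 of 29 had an unadjusted p under 0.05, against 2.15% of all tested probe sets, and the block changed no call. With control replicate 2 left out of the blocked fit, which then rests on 2 pairs, that count was 2, namely Wnt1 at -0.97 and Wnt4 at 0.23, against 5.17% of all probe sets. It was 1 of 25 with each gene's probe sets averaged, against 1.46%, namely Apc at 0.91. That value averages 0.13 on the probe set used, 0.84 on the other above the filter and 1.75 on a probe set below it. The probe set below the filter had 13.3, 16.5 and 11.5 in NT3, against 17.6, 1.8 and 2.1 in control. The probe set with 0.84 had 0.22 without control replicate 2. The count at an unadjusted limma p under 0.05 was 0 to 1 of 29 with single arrays left out, against 0.945% to 3.52%. The number of genes whose groups did not overlap was 0 of 29 with median centring, against 5.58% of all tested probe sets. It was 0 of 25 with probe sets averaged, against 6.1%, and 2 of 43 with no filter, against 7.16%. With the block when control replicate 2 was left out it was 4 of 29, against 18.5%. With single arrays left out, where fewer arrays must be separated, it was 1 to 5 of 29, against 12.1% to 18.5%. The 5 came without NT3 replicate 2, against 12.5%. The median log2 difference ran from -0.010 to 0.071 with single arrays left out and from -0.014 to 0.061 under the other alternatives, within the spread of the array medians (SD 0.099). The number of genes higher in NT3 was 14 to 19 of 29 with single arrays left out.

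Directions were not stable: 6 of the 29 tested genes, Apc, Gsk3b, Lrp5, Porcn, Wnt1 and Znrf3, kept theirs under all alternatives in which they were tested. Porcn was not tested with probe sets averaged, and its 2 probe sets went opposite ways, at -0.22 and 0.78. The differences that turned were, with quantile normalization, Wnt2b 0.003, Sfrp2 0.012; with median centring, Sfrp2 0.006; with array weights, Wnt2b 0.21, Wnt5b 0.072, Fzd8 -0.021, Lgr4 -0.052, Lgr5 -0.10, Sfrp2 0.081, Axin2 0.012; and with probe sets averaged, Sfrp2 0.16, Tcf7l2 0.028. In the blocked fit lacking control replicate 2 they were Wnt2b 0.071, Wnt5b 0.11, Fzd2 -0.03, Fzd3 -0.073, Fzd4 -0.014, Lgr4 -0.12, Lgr5 -0.34, Dkk3 0.021, Wif1 -0.032. With single arrays left out, 20 genes turned at least once, with these ranges: Wnt2b -0.30 to 0.22, Wnt4 -0.11 to 0.24, Wnt5b -0.29 to 0.054, Wnt6 -0.17 to 0.032, Wnt9a -0.21 to 0.07, Fzd1 -0.19 to 0.035, Fzd2 -0.11 to 0.16, Fzd6 -0.015 to 0.081, Fzd8 -0.055 to 0.16, Lrp6 -0.012 to 0.21, Lgr4 -0.20 to 0.46, Lgr5 -0.23 to 0.34, Sfrp1 -0.12 to 0.10, Sfrp2 -0.10 to 0.17, Wif1 -0.10 to 0.27, Axin1 -0.13 to 0.20, Axin2 -0.38 to 0.043, Dvl1 -0.12 to 0.27, Lef1 -0.012 to 0.18, Tcf7l2 -0.21 to 0.033. The cause was not tested. Signals under the filter give log2 differences with wide intervals, and no bound is drawn from them.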
